A study of Homo sapiens with 6 samples.

Results

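The F-box substrate receptors were followed in RKO, an established human colon cancer line, with wild-type and with knocked-out GSK3B. The members were all genes whose symbol begins with FBXW, FBXL or FBXO followed by a number, without antisense, divergent and pseudogene entries. The tables held 62 of them among 28278 gene symbols: 9 FBXW, 17 FBXL and 36 FBXO genes. Each genotype has 3 libraries, and the labels name no further allele, treatment or time. They give no method for the knockout, no word on clonality and none on whether replicates are separate cultures. A p-value here thus reflects the spread among these libraries alone, and that spread may be technical.

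F-box proteins are the interchangeable part of the SCF ubiquitin ligases. The F-box binds the adaptor SKP1, which docks on the cullin CUL1 with its RING partner RBX1, and the rest of the protein picks the substrate: through WD40 repeats in FBXW proteins, leucine-rich repeats in FBXL proteins and other folds in FBXO proteins. Some receptors bind only substrates that carry phosphates in a short motif, a phosphodegron. GSK3 writes several of these, among them those of MYC and cyclin E, read by FBXW7, and that of beta-catenin, read by the beta-TrCP proteins BTRC and FBXW11. RNA counts bear on how much of each receptor's transcript was present, not on ligase activity.

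The 6 libraries held 32379369 to 33558362 counts each. Values are given as CPM, counts scaled to the TMM-adjusted library size. GSK3B itself stood at 99.0, 97.6 and 91.4 CPM in the wild type and at 46.0, 47.5 and 47.1 CPM in the knockout. Its knockout level was 48.8% of wild type (95% interval 45.4 to 52.4), with an edgeR adjusted p of 1.88e-12. The two-sided exact permutation p was 0.1, the smallest that 3 against 3 allows. GSK3A, the gene of the other GSK3 protein, was at 102% of wild type (95% interval 95.3 to 110) and was not called (edgeR, adjusted p = 0.731). Wild-type replicate 3 stood apart: across 13814 genes its deviation from the gene's mean had a Pearson correlation of 0.49 with transcript GC content. Wild-type replicates 1 and 2 had -0.12 and 0.10, and knockout replicates 1 to 3 had -0.19, -0.22 and -0.15, all below 0. Among members with a mean of at least 10 CPM, wild-type replicate 3 was the highest wild-type library in 10 of 12 with a GC content of 55% or more. It was the lowest in 13 of 21 under 45%. For the called members described here, FBXW7 and FBXW11 the value without it is given too. Without that library 1 of 53 members was called higher and 2 lower, where 14.0% of all genes tested in that fit were called. Markers of epithelium were present (KRT8 at 28.2 to 31.1 CPM, KRT18 at 69.0 to 76.1 CPM), as were the intestinal genes CDX2 at 17.6 to 19.6 CPM and VIL1 at 15.4 to 19.0 CPM. EPCAM was lower in the knockout, at 2.40 to 4.28 CPM in wild-type and 1.04 to 1.11 CPM in knockout libraries (edgeR, adjusted p = 2.59e-05). KRT19 had 1 to 5 counts, CDH17 0 to 2 counts, and CDH1 was listed at 0. Of blood cell markers PTPRC and CD3E were listed at 0 and CD68, a lysosomal gene, was at 739.8 to 763 CPM. The 3 endothelial markers summed to 0.0608 to 0.240 CPM over all libraries, and the 4 fibroblast markers summed to 2.19 to 5.28 CPM in wild type and 0.870 to 1.14 CPM in knockout libraries. Of these COL1A1 and PDGFRB were called lower (adjusted p = 0.0285 and 9.20e-04). The part of these marker differences in the results was not tested. In bulk RNA, fewer cells of a type and less RNA per cell cannot be told apart.

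Most F-box receptors were expressed, over a wide range of levels. Levels were compared between genes as CPM per kilobase of annotated exon. In wild type 15 members stood at 10 or more, 29 between 1 and 10 and 18 below 1. The 18 include 3 genes listed at 0 in all 6 libraries, which was not read as absence of expression. The highest was FBXW5, a receptor for the centriole protein SAS-6, at 47.7 ± 3.76 CPM per kilobase (SD, n = 3). FBXW2 followed at 22.6 ± 0.970, then FBXO45, the partner of the ligase MYCBP2, at 20.2 ± 0.448 and FBXW11 at 19.8 ± 0.963. The libraries of FBXO45 and FBXW11 overlapped, so their order is not resolved, while FBXW5 lay above all others in every library. FBXL16 at 14.5 ± 1.09 and FBXO28 at 14.4 ± 1.13 could not be ordered either. FBXW7 was far lower, at 2.52 ± 0.239 CPM per kilobase, near FBXW4 at 2.42 ± 0.135; its length counts the exons of all annotated isoforms, whether or not they are used in these cells.

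**Figure D1:**
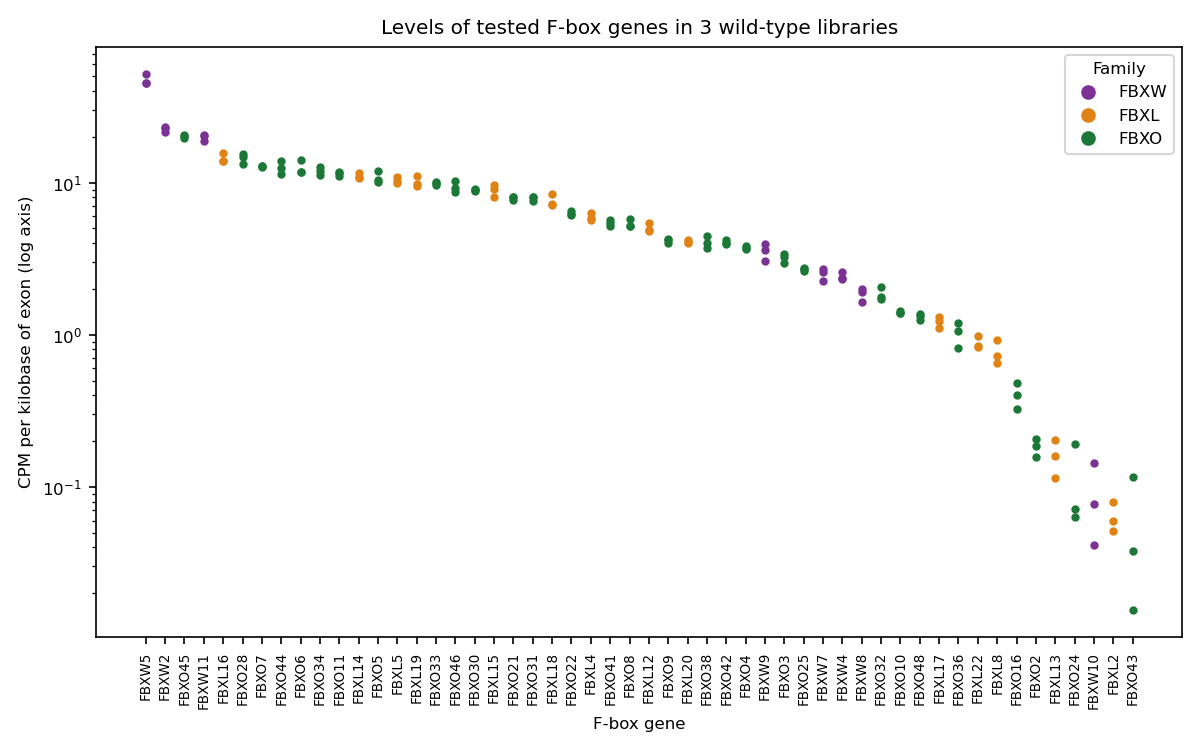
Level of tested F-box genes (1 not drawn) in the 3 wild-type libraries (one point per library), in CPM per kilobase of exon on a log axis, coloured by family. FBXW5 lies highest at 47.7 and 9 tested genes lie below 1.

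The filter on low counts kept 53 members: 8 FBXW, 15 FBXL and 30 FBXO genes. The 9 left out had at most 11 counts in any library; FBXL6, FBXL7 and FBXO47 were listed at 0 in all 6. FBXO15 had 6 to 11 counts, FBXO17 and FBXO27 had 0 to 4, and FBXO39, FBXO40 and FBXW12 had 0 to 2.

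A minority of F-box receptors was called between knockout and wild type, as was the case for all tested genes. At an adjusted p under 0.05 in edgeR's quasi-likelihood test 5 of the 53 tested members were called, 2 higher and 3 lower in the knockout, or 9.43%, where 13.5% of all 14409 tested genes were called (6.36% higher and 7.18% lower). FBXO30 rose, and FBXO32, FBXL20 and FBXL16 fell. Each of these had a two-sided exact permutation p of 0.1, the smallest that 3 against 3 allows. The groups did not overlap in 7 members (13.2%), 1 of them higher and 6 lower, against 31.3% of all tested genes (15.4% higher and 15.9% lower). The median log2 fold change of the members was -0.04 and that of all tested genes 0.00; the median sizes were 0.09 and 0.10. Of the 48 members not called, 40 had a 95% interval of the fold change that stayed within 1.5-fold in both directions. By family, 0 of 8 FBXW, 3 of 15 FBXL and 2 of 30 FBXO genes were called. DESeq2 and limma-voom called none of the FBXW genes. At an unadjusted p under 0.05 in edgeR the FBXW count was 1. The share of all tested genes at that unadjusted threshold was not computed, so such counts have no background beside them.

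**Figure D2:**
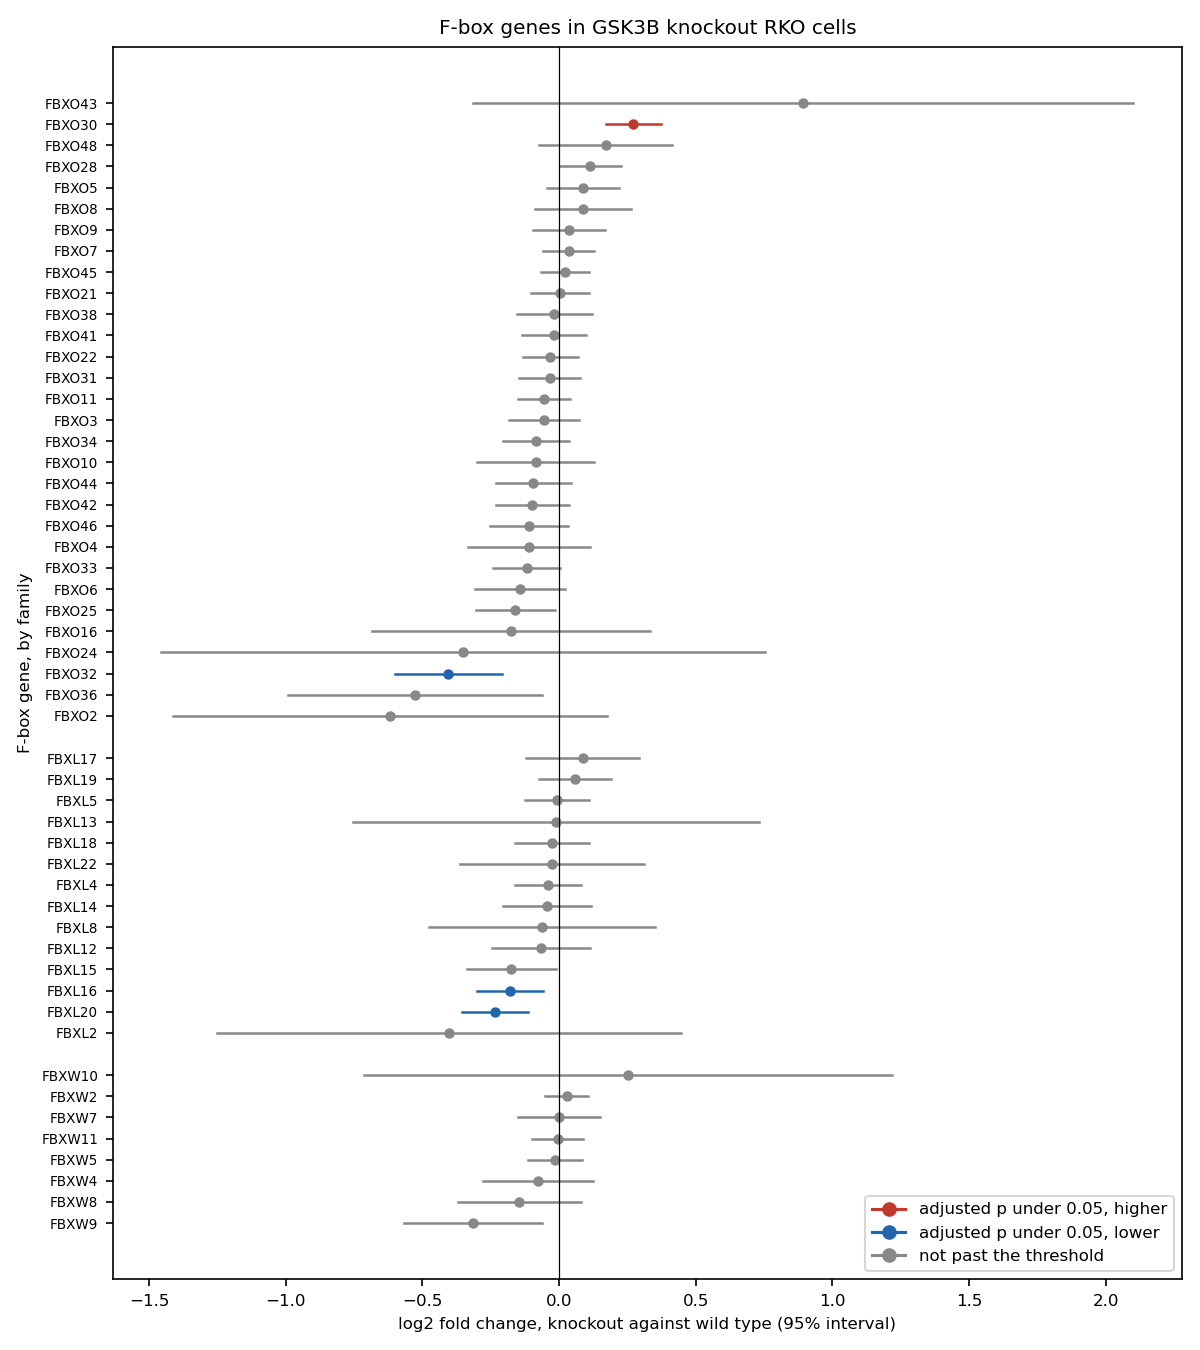
Log2 fold change of tested F-box genes (1 not drawn), knockout against wild type, with 95% intervals, grouped by family and coloured by edgeR's call. The called genes drawn lie between -0.40 and 0.27; the widest intervals belong to genes with few counts, such as FBXO43.

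The readers of GSK3 phosphodegrons did not pass the test. FBXW7, which targets MYC, cyclin E, JUN and NOTCH1 for degradation, had 30.1, 28.7 and 24.95 CPM in the wild-type libraries, and 27.0, 27.9 and 28.8 CPM in those of the knockout. All 3 knockout libraries lay inside the wild-type range. The knockout level was 100% of wild type (95% interval 90.1 to 111; log2 fold change 0.00 ± 0.07 SE; edgeR, adjusted p = 0.997; two-sided exact permutation p = 0.9), and the log2 fold change without wild-type replicate 3, the lowest library, was -0.07 (adjusted p = 0.499). RefSeq gives FBXW7 4 transcript starts spread over 183266 bases, and the counts sum whatever isoforms were present, so a shift between them would not be seen. Its exons share positions with FBXW7-AS1, which had 31 to 63 counts per library against 831 to 990 for FBXW7; no strand setting is stated, so reads of the pair cannot be told apart.

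FBXW11, one of the paired beta-TrCP receptors of beta-catenin, had 113, 114 and 104 CPM in wild type and 110, 110 and 111 CPM in the knockout. The wild-type libraries enclosed the knockout ones again, at 99.7% of wild type (95% interval 93.4 to 106; adjusted p = 0.965). Without wild-type replicate 3 the log2 fold change was -0.04 (adjusted p = 0.484). Its partner BTRC, outside the symbol rule, stood at 52.1 ± 2.47 and 49.6 ± 2.63 CPM (SD, n = 3; adjusted p = 0.475), and was not among the genes called. Beta-catenin's own transcript, CTNNB1, was at 101% of wild type (95% interval 95.7 to 106).

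FBXO30, a receptor known as MUSA1 from work on muscle wasting, rose. It lies on chromosome 6 (hg38, 145793502 to 145814753, minus strand). Its values were 82.4, 80.6 and 79.1 CPM in wild type and 95.6, 104 and 92.6 CPM in the knockout. Every knockout library lay above every wild-type library. The rise was 1.21-fold (log2 fold change 0.27 ± 0.05 SE, n = 3 per group; edgeR, adjusted p = 5.87e-04). It was called under all 15 alternatives, but shrank to 0.16 on the log2 scale with a correction for GC content; without wild-type replicate 3 it was 0.26. Its exons share positions with AL356599.1, which was not analysed here, and reads of the pair cannot be told apart.

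FBXO32, or atrogin-1, a receptor also known from muscle wasting, fell. It lies on chromosome 8 (123497889 to 123541206, minus strand). Wild-type replicates 1 to 3 had 15.1, 12.8 and 13.2 CPM and knockout replicates 10.5, 10.7 and 9.89 CPM. The groups did not overlap, and replicate 1 was the highest wild-type library. The knockout level was 75.5% of wild type (95% interval 66.0 to 86.4; log2 fold change -0.40 ± 0.09 SE; adjusted p = 0.00555), and the gene was called under all 15 alternatives, with -0.33 without wild-type replicate 1 and -0.43 without replicate 3.

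FBXL20, known as SCRAPPER and a receptor of the synaptic protein RIM1, also fell. It lies on chromosome 17 (39252644 to 39402523, minus strand). Its wild-type libraries had 45.5, 46.8 and 44.7 CPM, and its knockout libraries 38.4, 41.0 and 37.0 CPM. The groups were separate, with knockout replicate 2 nearest to wild type. The level was 84.9% of wild type (95% interval 78.1 to 92.4; log2 fold change -0.24 ± 0.06 SE; adjusted p = 0.00885). It passed under 13 of 15 alternatives, and did not without wild-type replicate 2 (adjusted p = 0.0598) or without knockout replicate 3 (adjusted p = 0.0667). Leaving out wild-type replicate 3 gave -0.25 (adjusted p = 0.00326).

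The stretches before the transcript starts of FBXO30 and FBXL20 are shown because these called members, FBXO30 higher and FBXL20 lower, have an entry in RefSeq's promoter table; FBXL16 and FBXO32 are named only. Each line gives the 250 bases upstream of the outermost start on GRCh38.p14, minus strand, 5′ to 3′, at chr6:145814796-145815045 and chr17:39402557-39402806. Capitals mark matches, on either strand, to the motifs searched: the E-box CACGTG, the cAMP response element TGACGTCA, the TCF/LEF motif CTTTGAT, the FOXO motif GTAAACA, the GC box GGGCGG and the CCAAT box.
FBXO30: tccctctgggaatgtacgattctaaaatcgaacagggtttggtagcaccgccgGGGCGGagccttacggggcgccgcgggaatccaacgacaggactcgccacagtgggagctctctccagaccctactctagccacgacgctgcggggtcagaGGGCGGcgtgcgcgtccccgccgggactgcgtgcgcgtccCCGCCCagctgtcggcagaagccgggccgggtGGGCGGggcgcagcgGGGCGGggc
FBXL20: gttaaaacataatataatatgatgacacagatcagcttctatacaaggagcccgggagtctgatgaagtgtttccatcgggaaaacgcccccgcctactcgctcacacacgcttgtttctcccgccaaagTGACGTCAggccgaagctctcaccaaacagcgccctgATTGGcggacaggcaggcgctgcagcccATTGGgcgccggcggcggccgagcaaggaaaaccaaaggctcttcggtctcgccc
The FBXO30 stretch, which also holds exon bases of AL356599.1, had 5 GC boxes and none of the other 5 motifs, and was 70.8% GC. The FBXL20 stretch held 1 cAMP response element, 120 bases before the start, and 2 CCAAT boxes on the reverse strand, 83 and 55 bases before it. Among 35116 such stretches of all genes a GC box was found in 42.6%, a CCAAT box in 32.01%, an E-box in 6.34%, the FOXO motif in 2.98%, the TCF/LEF motif in 2.26% and the cAMP response element in 1.65%. Among the 68 stretches of the 48 members with an entry, 43 had a GC box, 17 a CCAAT box, 6 an E-box, 3 the cAMP response element, 1 the FOXO motif and 0 the TCF/LEF motif. None of these motifs contains another. The matches describe the letters and say nothing about binding.

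FBXL16, which binds a regulatory subunit of the phosphatase PP2A, fell to 88.3% of wild type (95% interval 81.3 to 95.9). It had 55.5, 55.04 and 62.8 CPM in wild type and 52.7, 49.8 and 50.6 CPM in the knockout. The groups did not overlap, but wild-type replicate 3 was well above the other two. The log2 fold change was -0.18 ± 0.06 SE (adjusted p = 0.0403), and -0.11 without that library (adjusted p = 0.135). Leaving out wild-type replicate 2 or any of knockout replicates 1 to 3 also ended the call (adjusted p = 0.0569, 0.0739, 0.159 and 0.123), as did the GC correction (-0.08, adjusted p = 0.206). The gene lies on chromosome 16 (692498 to 705829, minus strand), where its exons share positions with Z92544.2, not analysed here.

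**Figure D3:**
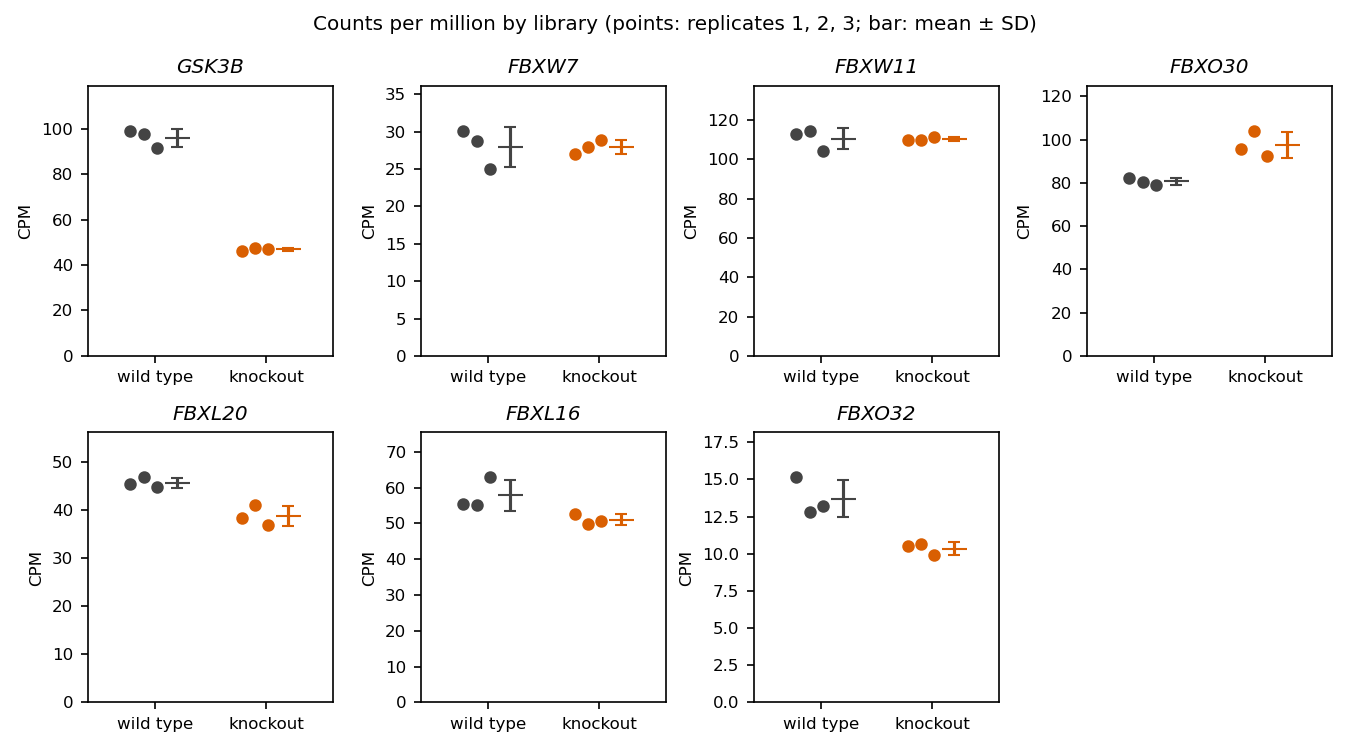
CPM in each library for GSK3B, the phosphodegron readers FBXW7 and FBXW11 and 4 called F-box genes; points are replicates 1 to 3 from left to right, bars the mean ± SD. FBXW7 and FBXW11 overlap between groups, FBXO30 is higher and FBXL20, FBXL16 and FBXO32 are lower in all 3 knockout libraries.

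The called members differed in base composition. The longest transcript of FBXO30, which rose, had a GC content of 34.8%, and that of FBXL16, which fell, 65.6%, while FBXO32 and FBXL20 had 43.5% and 44.0%. Across the 53 members the log2 fold change had a Pearson correlation of -0.29 with GC content, and across 13814 tested genes one of -0.23; genes share libraries and are not independent replicates. A GC correction was fitted per library, without regard to genotype, so it also removes a GC trend that runs with genotype. After it 9 members were called, 2 higher and 7 lower (17.0%), where 18.9% of all tested genes were (9.58% higher and 9.31% lower). The calls of FBXO30, FBXL20 and FBXO32 remained. FBXL19 was then called higher (0.16, adjusted p = 0.0257). FBXL4, a mitochondrial receptor, FBXO11, a receptor of BCL6, FBXO22, FBXO25 and FBXO3 were called lower, at -0.14, -0.13, -0.13, -0.23 and -0.15. Without the correction these 6 had adjusted p-values from 0.139 (FBXO25) to 0.721 (FBXO22). FBXO11 shares exon positions with MSH6 and AC079807.1, FBXL19 with FBXL19-AS1 and AC135048.1, FBXO22 with NRG4 and FBXO25 with AC083964.1. MSH6 had 3739 to 4213 counts per library and FBXL19-AS1 217 to 271. With no strand setting stated, reads of such pairs cannot be told apart.

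**Figure D4:**
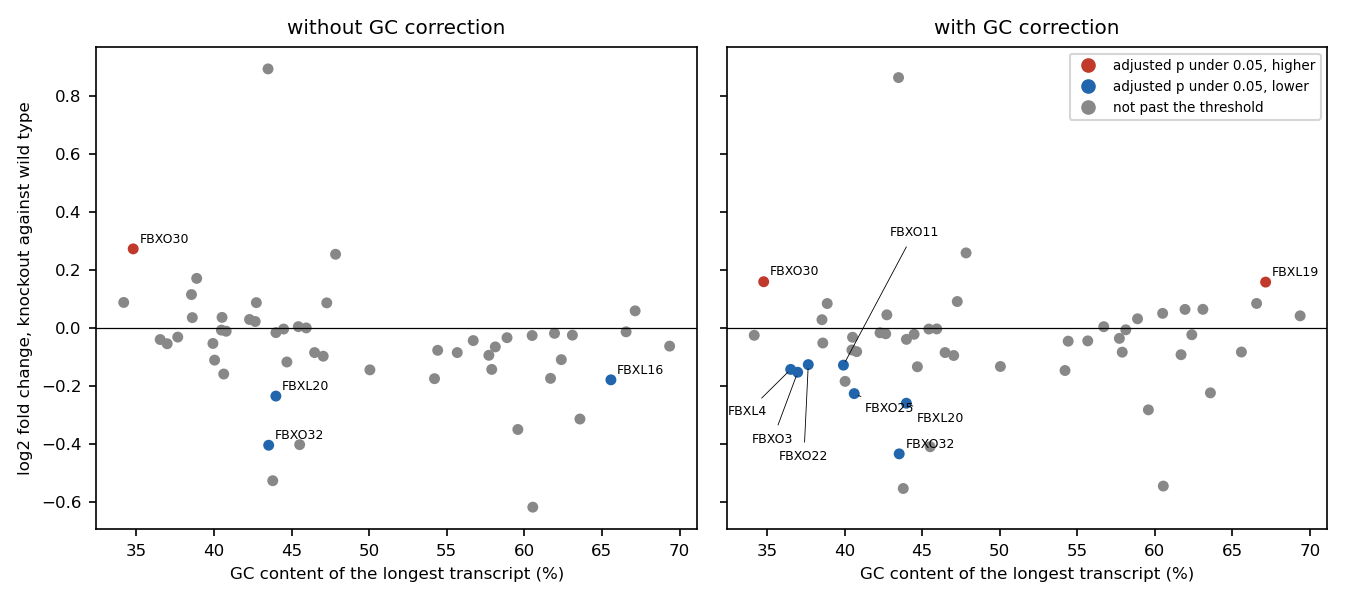
Log2 fold change of tested F-box genes (1 not drawn) against the GC content of their longest transcript, without (left) and with (right) the per-library GC correction; colours give edgeR's call. FBXL16 is called only on the left, and 6 further genes only on the right.

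The other FBXW receptors were not called. FBXW5 was at 99.0% (95% interval 92.4 to 106) and FBXW2 at 102% (96.6 to 108). FBXW8, which works with the cullin CUL7, was at 90.4% (77.4 to 106). FBXW9 was the uncalled member nearest the threshold, with 7.69, 6.45 and 8.41 CPM in wild type and 6.46, 5.78 and 5.89 CPM in the knockout. Its groups touched, with knockout replicate 1 just above wild-type replicate 2 (log2 fold change -0.31 ± 0.12 SE, adjusted p = 0.0894; -0.23 without wild-type replicate 3). The GC correction left FBXW9 at -0.22 (edgeR, adjusted p = 0.195). FBXW10 had 6 to 21 counts per library and an interval of 61.0% to 233%, too wide to place it.

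Of the 15 tested FBXL genes 12 were not called. Among them FBXL5, the iron sensor that degrades IRP2, was at 99.4% of wild type (95% interval 91.8 to 108) and FBXL14, a receptor of SNAI1, at 97.0% (86.7 to 108). FBXL17, which removes misassembled BTB domain dimers, was at 106% (91.9 to 123). FBXL15 was at 88.6% (79.2 to 99.2; adjusted p = 0.148), an interval short of 100% that did not survive adjustment over all genes. FBXL2 had 11 to 20 counts per library and an interval of 42.0% to 136%.

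FBXO5, or EMI1, an inhibitor of the anaphase-promoting complex, had 45.6, 39.6 and 38.6 CPM in wild type and 44.9, 43.2 and 43.5 CPM in the knockout (adjusted p = 0.397). Its germline relative FBXO43 (EMI2) had the largest fold change of any tested member, 0.89 ± 0.59 SE on the log2 scale, but on 2, 15 and 5 counts against 18, 5 and 18. The groups overlapped, and the adjusted p was 0.341. FBXO31 and FBXO4, both reported as receptors of cyclin D1, were at 97.7% (90.4 to 105) and 92.6% (79.3 to 108) of wild type.

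FBXO2, FBXO44 and FBXO6, a family related in sequence in which FBXO2 and FBXO6 bind glycoproteins, are neighbours on chromosome 1, from 11637018 to 11674354. FBXO44 had 44.5 ± 4.46 CPM in wild type and 41.6 ± 1.90 in knockout libraries, and FBXO6 had 22.7 ± 2.36 and 20.6 ± 1.07 CPM (SD, n = 3). In both genes the groups overlapped (adjusted p = 0.377 and 0.249). FBXO2 had few counts beside them, with 21, 23 and 18 in wild type and 18, 11 and 11 in the knockout (adjusted p = 0.312). It shares exon positions with FBXO44, and reads of the pair cannot be told apart, so the low counts do not show that FBXO2 was silent. Of the same family FBXO17 and FBXO27 were not tested.

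Among the remaining FBXO genes, those at high level were not called. FBXO45 was at 102% of wild type (95.6 to 108) and FBXO7, a gene linked to inherited parkinsonism, at 102% (96.1 to 109). FBXO28 had 89.4, 92.8 and 79.6 CPM in wild type and 99.6, 91.5 and 92.4 CPM in the knockout, with an adjusted p of 0.168. Wild-type replicate 3 was again the low library. FBXO33, FBXO11 and FBXO10 were lower in all 3 knockout libraries, with no overlap, at 92.1%, 96.3% and 94.2% of wild type, and did not pass (adjusted p = 0.200, 0.489 and 0.645). FBXO38, reported as a receptor of PD-1, was at 98.9% (89.8 to 109).

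FBXO36 and FBXO24 were among the members with the largest fold changes, and neither was called. FBXO36 had 155, 105 and 140 counts in wild type and 112, 111 and 52 in the knockout. Knockout replicate 3 was far below the others, and knockout replicates 1 and 2 lay above the lowest wild-type library. Its log2 fold change was -0.53 ± 0.22 SE (adjusted p = 0.125), and -0.24 without knockout replicate 3. It was called lower under 2 alternatives, with no filter beyond 1 count (adjusted p = 0.0211) and with the GC correction and replicate block together (adjusted p = 0.0405). FBXO24 had 4 to 21 counts per library and an interval of 36.5% to 169% of wild type. Its log2 fold change of -0.35 turned to 0.33 without wild-type replicate 2 and was 0.01 without knockout replicate 1.

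The genes of the machinery that the receptors plug into were read from lists. Of 13 tested genes of the SCF core and its E2 enzymes 1 fell and 0 rose (7.69%, beside 13.5% of all genes), with a median log2 fold change of 0.01. With the GC correction 3 of the 13 were called, where 18.9% of all genes were. SKP1 and CUL1 were at 103% (95% interval 96.4 to 109) and 106% (99.5 to 113). The gene that fell was CUL7, the cullin that pairs with FBXW8, from 33.4, 33.7 and 34.7 CPM to 28.9, 26.9 and 30.0 CPM. The groups were separate (log2 fold change -0.25 ± 0.06 SE, adjusted p = 0.0118), though without knockout replicate 2 it did not pass (adjusted p = 0.0973). Of 14 genes of neddylation and receptor exchange 1 rose (7.14%, beside 13.5% of all genes), with a median of 0.07. It was CAND1, the factor that swaps F-box proteins on CUL1, at 109% of wild type (103 to 116; adjusted p = 0.0493), and it passed in none of the fits without wild-type replicate 2 or 3 or any knockout library (adjusted p from 0.0990 to 0.173), nor with the GC correction (0.05, adjusted p = 0.182).

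Of the 10 subunits of the COP9 signalosome, which removes NEDD8 from cullins, 0 were called by edgeR, DESeq2 or limma-voom, where edgeR called 13.5% of all genes. An unadjusted p under 0.05 in edgeR was found for 2, with no share of all genes computed at that threshold. The median was 0.01. COPS6 was at 99.9% of wild type and COPS7A at 97.4%. Of 10 tested F-box genes that carry other symbols, 0 were called by these tools, beside the same 13.5%, with a median of -0.03. An unadjusted p under 0.05 in edgeR was found for 1, again without a share of all genes at that threshold. KDM2A and FBH1 were at 99.5% (93.9 to 105) and 96.3% (90.3 to 103). SKP2, the receptor of the cell cycle inhibitor p27, was higher in all 3 knockout libraries, at 108% (101 to 115), and did not pass (adjusted p = 0.113).

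Transcripts of proteins with GSK3 phosphodegrons were set beside their readers. Of 15 tested genes 1 rose, 2 fell and 12 did not pass (3 of 15 called, beside 13.5% of all genes), with a median of 0.01. NFKB2 fell to 82.4% of wild type (95% interval 76.6 to 88.7) and MYC to 85.7% (81.7 to 89.9). MYC had 522, 541 and 549 CPM in wild type and 456, 456 and 469 CPM in the knockout, with separate groups (adjusted p = 6.28e-05). Without wild-type replicate 3 the list held 5 called genes of 15, where 14.0% of all genes tested in that fit were called. CDC25A, the cell cycle phosphatase that beta-TrCP binds, rose to 112% (105 to 120; adjusted p = 0.0145), but the call ended when wild-type replicate 2 or either of knockout replicates 1 and 2 was left out (adjusted p = 0.0554, 0.0833 and 0.0912).

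**Figure D5:**
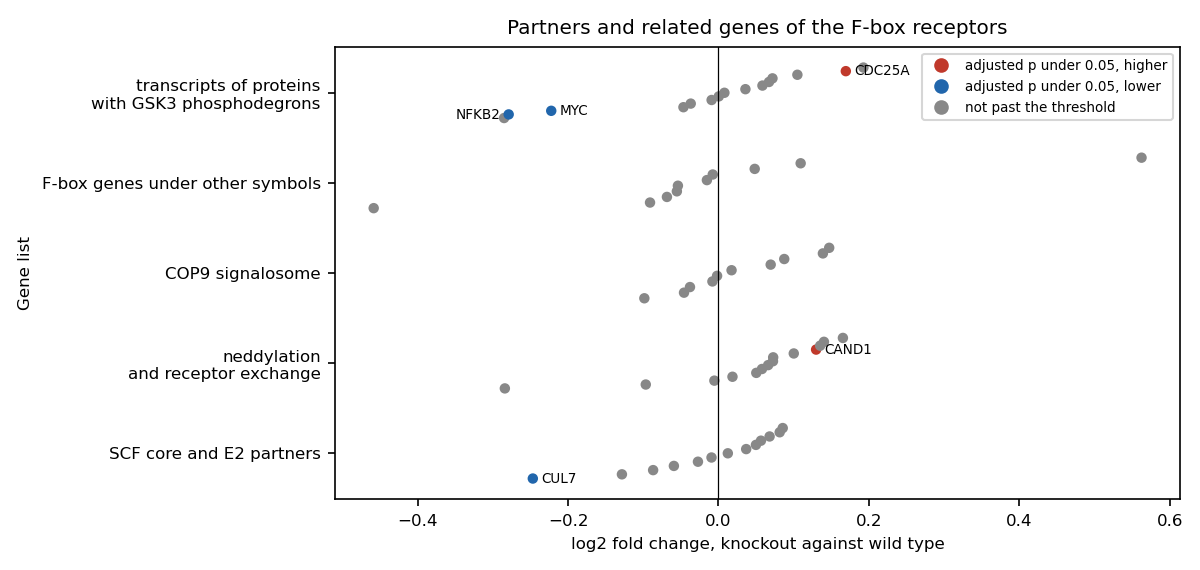
Log2 fold change, knockout against wild type, of the tested genes of 5 lists related to the F-box receptors (one point per gene; height within a list only separates points), coloured by edgeR's call. CUL7, NFKB2 and MYC are lower and CAND1 and CDC25A higher; all other genes are not past the threshold.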

How the data were processed

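The authors deposited 1 table of raw counts for each library, with a whole number for every gene symbol; per the submitters' processing notes the build was hg38 and TopHat, limma and edgeR were used, named without roles. The counting program, annotation and strand setting were not given in the sources used here. Per the labels' protocols, libraries came from polyadenylated RNA and reads were paired.

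Counts were tested in R 4.3.3 with edgeR 4.0.16: filterByExpr (minimum count 10, minimum total 15; 14409 genes kept), TMM scaling, a robust quasi-likelihood fit on group and Benjamini-Hochberg adjustment over all tested genes, threshold 0.05. The code was tested on simulated data. Intervals are 95%. 1 called member is not reported here by name or value and stays in the counts. Exon lengths, GC content and coordinates are from GENCODE 29 (26218 symbols matched), promoters from RefSeq. Members and lists were chosen with earlier results of these data known. Named genes were GSK3B, FBXW7, FBXW11, called members, the 6 largest changes, the 6 highest levels, the 2 nearest the threshold, and up to 4 called genes (or the 2 of highest level) per list; others described were added after their values were seen. Alternatives included limma-voom (limma 3.58.1), DESeq2 1.42.0, a GC spline with 5 degrees of freedom and leaving out each library.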

Additional observations from a re-analysis of the deposited data

How the results depend on the processing

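The GSK3B fall was called under all 15 alternatives. With library size alone 1 member was called higher and 3 lower, where 13.0% of all genes were called in either direction. The members' median was then -0.059. With the GC correction 7 members were called lower, beside 9.31% of all genes. With the GC correction and the replicate block 2 members were called higher and 8 lower, where 19.2% of all genes were called in either direction. With the replicate block alone the member counts stayed at 2 higher and 3 lower, and GSK3B at -1.03. Of all genes 15.2% were then called, against 13.5% without the block. In the labels same-numbered libraries share only a number. Their deviations correlated at 0.07, -0.0041 and 0.03, which cannot show whether they were prepared together. Leaving out each library in turn gave 950 to 2531 called genes, 1 to 2 members higher, 1 to 3 lower and a median from -0.066 to -0.026; the lowest gene count was without knockout replicate 2 and the highest without wild-type replicate 1. Such fits gave 0 to 3 called genes of the SCF core, 0 to 1 of neddylation, 0 to 1 of the COP9 signalosome and 2 to 5 phosphodegron transcripts.

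Of all genes 13.0% were called with library size alone, 11.5% with no filter beyond 1 count and 15.1% with 1 CPM in 3 libraries. The share was 15.2% with the replicate block, 12.9% with DESeq2, 18.9% with the GC correction and 19.2% with the block added. The SCF core count was 2 with library size alone, no filter beyond 1 count, 1 CPM in 3 libraries, the replicate block or DESeq2. It was 3 with the GC correction, with or without the block. The neddylation count was 0 with library size alone, 1 CPM in 3 libraries or DESeq2. The COP9 count was 1 with no filter beyond 1 count, the replicate block or either GC correction. F-box genes under other symbols had 2 calls with the GC correction and 1 with the block added, and phosphodegron transcripts 6 with either. No called value changed sign; of 26 named genes 8 uncalled ones did, FBXO24 to 0.33 and the others by at most 0.084 past 0. The cause of these shifts was not tested. Depth limits the members under about 1 CPM, whose intervals span more than 1.5-fold.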

Other observations

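FBXL6 was listed at 0 in all 6 libraries, as were FBL, NDUFS1 and FDFT1, genes that dividing cells generally use. SLC52A2, which shares exon positions with FBXL6 on chromosome 8, stood at 180.4 ± 14.96 CPM in the wild type and at 179 ± 1.62 CPM in the knockout (SD, n = 3). A listed 0 was therefore not read as absence of expression.

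FBXO16 shares exon positions with ZNF395. ZNF395 fell (log2 fold change -0.37; edgeR, adjusted p = 1.71e-05), while FBXO16, with 40 to 63 counts per library, stood at 88.5% of wild type (95% interval 62.3 to 126) and did not pass.

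After the GC correction, transcripts of proteins with GSK3 phosphodegrons held 6 called genes of 15, where 18.9% of all tested genes were called: MYC, NFKB2 and KLF5 lower, at -0.19, -0.19 and -0.28 on the log2 scale, and NOTCH1, CDC25A and SREBF1 higher, at 0.16, 0.18 and 0.15. NOTCH1 and SREBF1 stood at 0.07 and 0.06 without it and were then not called (edgeR, adjusted p = 0.330 and 0.561). Among the ligase partners the corrected fit called ARIH1, CKS1B and UBA3 lower, at -0.20, -0.12 and -0.18, beside CUL7 at -0.18, and COPS9 higher, at 0.20, against the same 18.9%.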
